A study of Arabidopsis thaliana with 2 samples.

Results

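CHG methylation differences were examined on the chromosome arms of Arabidopsis thaliana, in the plant line ddb2-3 and in a line called cen, each set against Col wild type. A region was taken as an arm region when its midpoint lay more than 3 Mb from the centromere position of its chromosome, set at 15, 3.6, 14, 4 and 12 Mb on chromosomes 1 to 5. This rule uses position alone and no methylation value. It kept 1191 of the 4440 CHG regions in the ddb2-3 table and 1527 of the 6834 in the cen table, or 2718 of 11274 in all. The ddb2-3 line carries the insertion DsLoxHs195_05H, Col is unmutated, and both were grown in vitro as seedlings for 10 days, with 1 bisulfite-sequenced library of whole seedlings for each, per the labels. The labels used here describe no sample of the cen line, so its genotype and growth are not stated, and it enters through the authors' region lists alone. Each table gives regions on a grid of 100 bp with 1 difference in methylation level, on a scale where 1 is the step between no methylation and full methylation. The reads, coverage and level per library behind a difference are unknown, and with 1 library a group no test across plants was possible. The sign of the difference was inferred as Col minus the other line, and every "higher" or "lower" below, which is always relative to Col, rests on that inference. A level is a mean over the cells of a seedling, so a change in all cells and a larger change in some of them cannot be told apart.

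CHG is a cytosine followed by any base but G and then by G. In plants, methylation in this context is copied after replication mainly by the methyltransferase CMT3, which binds nucleosomes with a methylated histone H3 lysine that enzymes such as SUVH4 put in place. It is dense over the transposons around centromeres and is found on the arms mostly at scattered transposons, repeats and the flanks of some genes, while the bodies of most expressed genes lack it. DDB2 encodes a protein that recognises damaged DNA in global genome repair, where it works with DDB1 and the cullin CUL4.

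On the arms, lower CHG regions outnumbered higher ones in ddb2-3, whereas higher regions made up most of the cen table. In ddb2-3, 548 arm regions were higher and 643 lower, a share of 46.0% higher (95% Wilson interval 43.2 to 48.9). In cen, 1274 were higher and 253 lower, or 83.4% higher (81.5 to 85.2). Such intervals cover counting error only, and neighbouring regions are not independent. Near the centromeres the share of higher regions was larger in both tables, and the intervals did not overlap those of the arms. The arm share was 46.0% against 66.0% (64.4 to 67.6) of 3249 pericentromeric regions in ddb2-3, and 83.4% against 91.6% (90.8 to 92.3) of 5305 in cen. Both comparisons share the same Col library, so they are not independent of each other.

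By chromosome arm, the cen table leaned to higher regions everywhere and the ddb2-3 table lay on either side of an even split. In ddb2-3 the share of higher regions ran from 39.8% (31.3 to 49.0) of 113 regions on the left arm of chromosome 5 to 57.1% (39.1 to 73.5) of 28 on the left arm of chromosome 2, and it was above 50% on 4 of the 10 arms. The interval lay wholly below 50% on that chromosome 5 arm and on the right arm of chromosome 1, at 41.4% (34.1 to 49.1) of 162 regions. In cen all 10 arms were above 50%, from 76.6% (70.3 to 81.9) of 205 regions on the right arm of chromosome 1 to 96.3% (81.7 to 99.3) of 27 on the left arm of chromosome 4. The plot of direction by chromosome arm shows these shares.

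**Figure D1:**
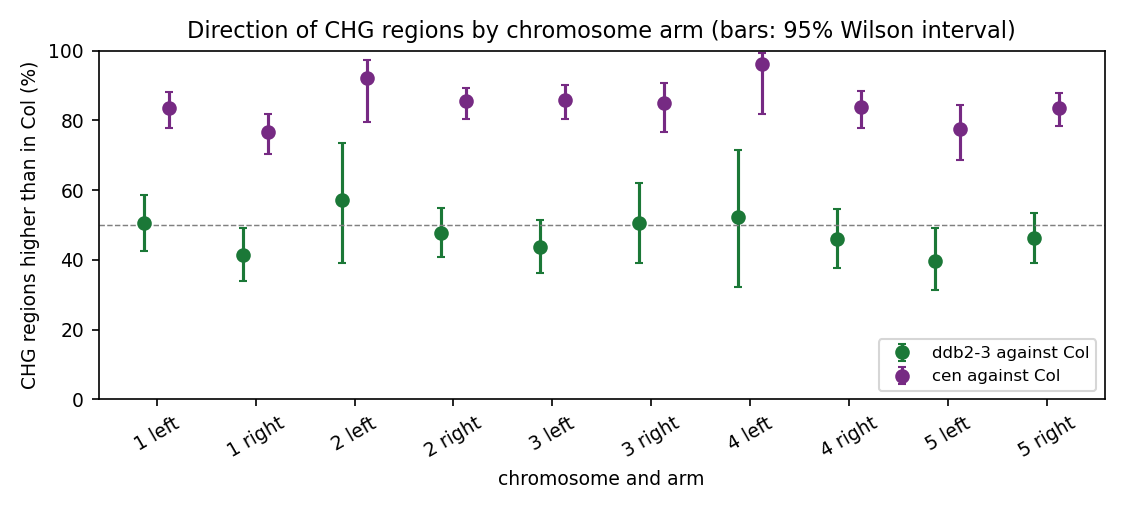
Share of CHG arm regions that were higher than in Col (y axis, percent) on each chromosome arm (x axis), for ddb2-3 and cen, with points for the share and bars for its 95% Wilson interval. The ddb2-3 points lie between 39.8% and 57.1% and the cen points between 76.6% and 96.3%, with no arm where the cen point is below the ddb2-3 point.

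Typical differences were small. The tables differed in how many regions were listed in each direction, while the median sizes were close. All listed differences were above 0.1 in absolute size, and this limit in part sets the medians. The median absolute difference on the arms was 0.182 in ddb2-3 (quartiles 0.147 and 0.225) and 0.175 in cen (0.146 and 0.221). Higher regions had a median of 0.179 in ddb2-3 and 0.174 in cen. Lower regions had a median of 0.185 in ddb2-3 and 0.179 in cen. Differences of 0.3 or more were a larger part of the arm tables than of the pericentromeric ones. They made up 107 arm regions (8.98%) against 5.29% near the centromeres in ddb2-3, and 108 (7.07%) against 3.92% in cen. Among these, 45 were higher and 62 lower in ddb2-3, and 81 were higher and 27 lower in cen.

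**Figure D2:**
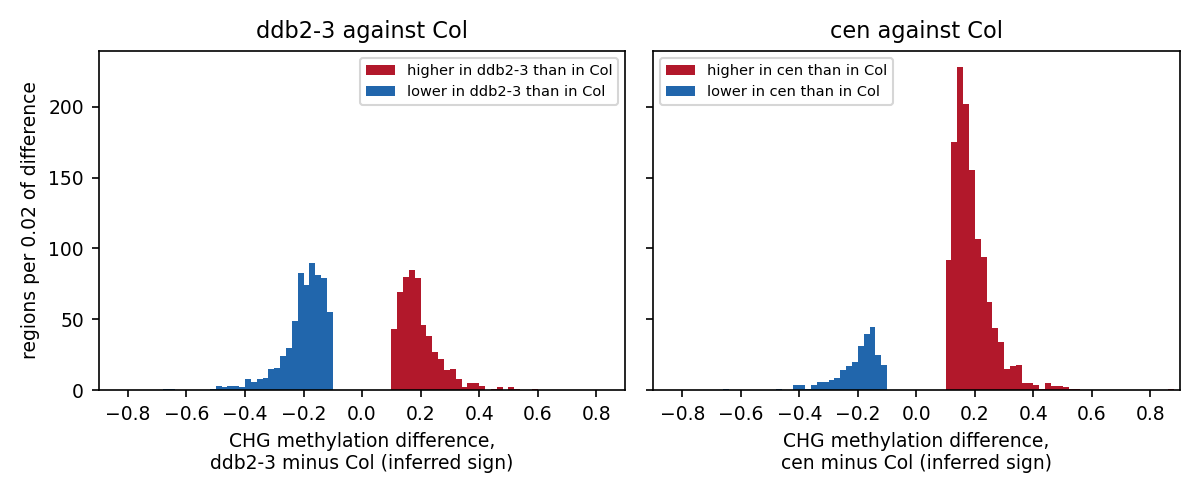
Histogram of the CHG methylation difference of arm regions (x axis, line minus Col on the inferred sign) against the number of regions (y axis), for ddb2-3 at left and cen at right, with red for higher and blue for lower than in Col. No region lies between -0.1 and 0.1, where the authors listed none, and the blue part holds 643 regions in ddb2-3 and 253 in cen.

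Most regions were 1 window of 100 bp. That held for 86.4% of arm regions in ddb2-3 and for 82.3% in cen, and all arm regions together covered 148.7 kb in ddb2-3 and 209 kb in cen. In ddb2-3 the wider regions were more often lower, with 106 of 162 regions of 200 bp or more lower than in Col and 34.6% (27.7 to 42.2) higher, against 47.8% (44.8 to 50.9) higher among single windows. In cen the matching shares were 80.8% (75.7 to 85.1) of 271 wider regions and 84.0% (81.9 to 85.9) of single windows. Another listed arm region stood within 1 kb of 244 members (20.5%) in ddb2-3 and of 424 (27.8%) in cen. Neighbouring pairs went the same way in 83 of 144 cases in ddb2-3 and in 227 of 267 in cen. Pairs match more often where 1 direction dominates, as in cen, and no expected count was worked out.

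Region density was lower far from the centromere than near it in both tables, without a steady fall in between. Between 3 and 4 Mb from the centromere position there were 34.2 CHG regions per Mb in ddb2-3, and beyond 10 Mb there were 5.67. For cen the matching densities were 45.5 and 7.01 per Mb. At 4 to 5 Mb and at 5 to 7 Mb the densities were 16.25 and 18.06 per Mb in ddb2-3, and 22.5 and 21.8 in cen. In each table the bin with the most regions lay on the right arm of chromosome 2 at 3 to 3.5 Mb, with 20 higher and 20 lower regions in ddb2-3 and 50 higher and 4 lower in cen. Far out on the arms the share of higher regions was smaller. In cen it was 87.6% (84.2 to 90.4) at 3 to 4 Mb and 75.1% (69.1 to 80.3) beyond 10 Mb, and in ddb2-3 it was 47.3% (41.9 to 52.7) and 41.2% (34.3 to 48.5) at these distances, where the intervals overlap.

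**Figure D3:**
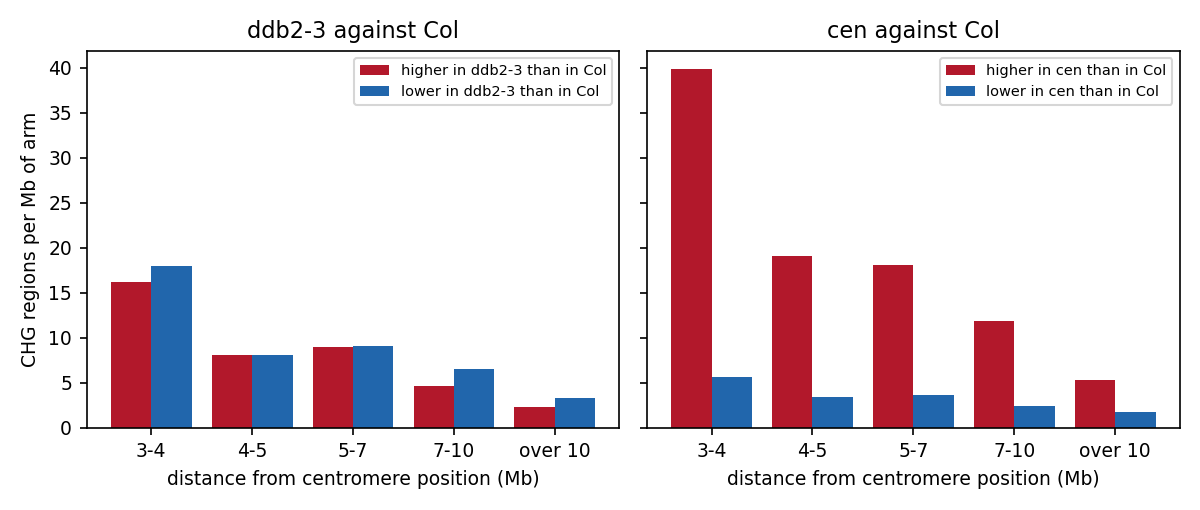
CHG regions per Mb of chromosome arm (y axis) by distance from the centromere position in Mb (x axis, the 5 chromosomes together), for ddb2-3 at left and cen at right, with red bars for higher and blue bars for lower than in Col. Higher regions stand at 16.1 per Mb in ddb2-3 and 39.9 per Mb in cen at 3 to 4 Mb, and at 2.34 and 5.27 per Mb beyond 10 Mb.

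A larger share of arm regions than of pericentromeric regions was classed as in or beside protein-coding genes. How much of the sequence of either part lies in or within 1 kb of such genes was not measured. The contrast is therefore not set against gene density. In ddb2-3, 21.1% of arm regions had their midpoint in a protein-coding gene and a further 30.9% within 1 kb of one, 23.8% lay in genes annotated as pseudogenes, 2.60% in other genes and 21.7% elsewhere. In cen these shares were 21.2%, 28.2%, 28.2%, 2.55% and 19.9%. Each midpoint was put in 1 class, tried in this order: protein-coding gene, pseudogene, other gene, 1 kb flank of a protein-coding gene, elsewhere. By these classes, 52.0% (49.1 to 54.8) of arm regions against 13.7% (12.6 to 14.9) of pericentromeric regions stood in or within 1 kb of a protein-coding gene in ddb2-3. In cen it was 49.4% (46.9 to 51.9) against 13.3% (12.4 to 14.3). These shares leave out regions in pseudogenes that lie near such genes. Pseudogenes held 52.3% of pericentromeric regions in ddb2-3 and 51.6% in cen, so more may be left out there. Whether the pseudogene class holds transposon genes was not checked, and the gene table gives no exons, introns or untranslated parts, so none are named here.

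The direction of a region went with its place, in a different pattern in each table. In ddb2-3, regions in pseudogenes were higher at 57.2% (51.4 to 62.9) and those in protein-coding genes at 39.8% (34.0 to 46.0), and these intervals did not overlap. Regions within 1 kb of protein-coding genes were higher at 45.4% (40.4 to 50.5) and those elsewhere at 41.5% (35.6 to 47.6). In cen, regions in pseudogenes were higher at 90.5% (87.3 to 92.9) and those in protein-coding genes at 87.7% (83.6 to 90.8). The lowest cen share was found within 1 kb of protein-coding genes, 75.3% (71.1 to 79.2), a flank class that held 106 of the 253 lower regions of cen on the arms.

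**Figure D4:**
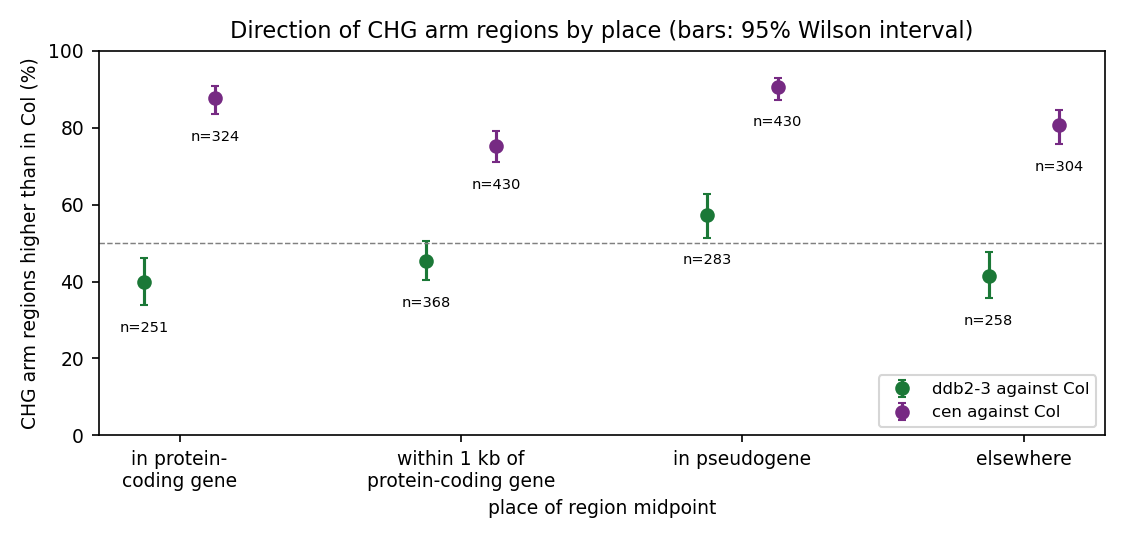
Share of CHG arm regions higher than in Col (y axis, percent) by the place of the region midpoint (x axis), for ddb2-3 and cen, with points for the share, bars for its 95% Wilson interval and n for the number of regions. The ddb2-3 point in pseudogenes, at 57.2%, is the one of its 4 points above the dashed line at 50%, and the cen points lie between 75.3% and 90.5%. Regions in other genes, 31 in ddb2-3 and 39 in cen, are not drawn.

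Few protein-coding genes of the arms had a CHG region. Of 24243 such genes, 865 (3.57%) had one in the gene or within 1 kb in ddb2-3 and 977 (4.03%) in cen. In ddb2-3, 366 genes had higher regions alone, 476 lower regions alone and 23 both, and in cen the counts were 765, 189 and 23. A higher region lay at 1.6% of genes in ddb2-3 and at 3.25% in cen, and a lower one at 2.06% in ddb2-3 and at 0.874% in cen. Within the gene itself, a region lay in 247 genes in ddb2-3 and 305 in cen. Of 1157 pseudogenes, 269 (23.2%) had a region in ddb2-3 and 335 (29%) in cen. A higher region lay at 14.5% of pseudogenes in ddb2-3 and at 26.7% in cen, and a lower one at 13.1% in ddb2-3 and at 5.27% in cen. Of 4705 genes annotated as neither of these, 167 (3.55%) had a region in ddb2-3 and 209 (4.44%) in cen. Higher regions lay at 1.68% of these genes in ddb2-3 and at 3.55% in cen, and lower ones at 1.98% in ddb2-3 and at 1.02% in cen.

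The 4 largest gains of ddb2-3 on the arms lay on chromosomes 1 and 2. In the authors' deposited table the largest was chromosome 1, 6704701 to 6704800 (TAIR10, as are all positions here), higher by 0.597, with no annotated gene within 1 kb. Within 1 kb of SECA2, which encodes a chloroplast protein translocase, and of AT1G21651 and AT1G21660, the window on chromosome 1 from 7604901 to 7605000 was higher by 0.527 in ddb2-3 in the authors' deposited table. The cen row there, 7604901 to 7605100, was higher by 0.396, in the authors' deposited table. This place was higher in every context in both lines, with CG differences of 0.695 in ddb2-3 and 0.704 in cen and CHH differences of 0.159 in ddb2-3 and 0.181 in cen, per the authors' deposited tables. Near AT2G40095, chromosome 2 from 16742401 to 16742500 was higher by 0.508 in ddb2-3 and by 0.252 in cen, again from the authors' deposited tables. In the pseudogene AT2G01028, chromosome 2 from 24501 to 24800 was higher by 0.501 in ddb2-3 in the authors' deposited table, and no cen CHG region overlapped it.

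The 4 largest losses of ddb2-3 lay on chromosomes 1, 2 and 5. In the authors' deposited table, the pseudogene AT1G54926 held a window lower by 0.667, chromosome 1 from 20477301 to 20477400, within 1 kb of the protein-coding AT1G54930. Near the long noncoding RNA gene AT2G08505, chromosome 2 from 13702401 to 13702600 was lower by 0.656 in ddb2-3 and by 0.660 in cen in the authors' deposited tables. There the CG differences listed in the authors' deposited tables were 0.669 in both lines, and the CHH differences were 0.158 in ddb2-3 and 0.163 in cen, all lower. Beside ENDO2, an endonuclease gene, chromosome 1 from 25595601 to 25595900 was lower by 0.504 in ddb2-3, with a cen region of 25595701 to 25595900 lower by 0.335, in the authors' deposited tables. Near AT5G43540 and AT5G43550, chromosome 5 from 17498401 to 17498500 was lower by 0.491 in ddb2-3 and by 0.462 in cen, in the authors' deposited tables.

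In cen, the largest gain lay at a ribosomal RNA gene. In the authors' deposited table, AT2G01010, annotated as rRNA at the tip of the left arm of chromosome 2, held a window higher by 0.875, from 3901 to 4000. Ribosomal RNA genes stand in long tandem arrays of near-identical copies that can share reads, so this value is uncertain. A region of 500 bp on chromosome 4, 9309801 to 9310300, with no gene within 1 kb, was higher by 0.546 in cen in the authors' deposited table. Near AT2G08355, a long noncoding RNA gene, chromosome 2 from 12773601 to 12774400 was higher by 0.506, together with CG by 0.712 and 2 CHH regions by 0.145 and 0.127, in the authors' deposited tables for cen. None of these 3 places overlapped a ddb2-3 CHG region. The other of the 4 largest cen gains did overlap one. It lay next to AT4G15050 on chromosome 4, 8590801 to 8591300, and was higher by 0.525 in cen and by 0.409 in ddb2-3, in the authors' deposited tables. The largest cen losses after AT2G08505 and AT5G43540 were chromosome 1 from 11155201 to 11155400, lower by 0.415 with no gene within 1 kb, and chromosome 5 from 19567001 to 19567100 in AT5G48280 and the microRNA gene MIR2939, lower by 0.412, in the authors' deposited table.

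The tables are set side by side below at places where a region of each met by at least 1 bp. The strongest such gain, taken by the smaller of both differences, lay in AT3G09960 on chromosome 3, 3063501 to 3063600, higher by 0.473 in ddb2-3 and 0.441 in cen in the authors' deposited tables. Next to AT4G15050, chromosome 4 from 8590801 to 8591300 was higher by 0.409 in ddb2-3 and 0.525 in cen, with CG higher by 0.718 in ddb2-3 and 0.783 in cen, in the authors' deposited tables. In the pseudogene AT1G32590, chromosome 1 from 11791301 to 11791400 was higher by 0.393 in ddb2-3 and 0.503 in cen in the authors' deposited tables. Among losses, a window near AT1G23960 on chromosome 1, 8478001 to 8478100, was lower by 0.392 in ddb2-3 and 0.400 in cen, and the AT5G48280 window was lower by 0.373 in ddb2-3, in the authors' deposited tables. The Col library is shared, so the ddb2-3 and cen values at a place are not independent.

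**Figure D5:**
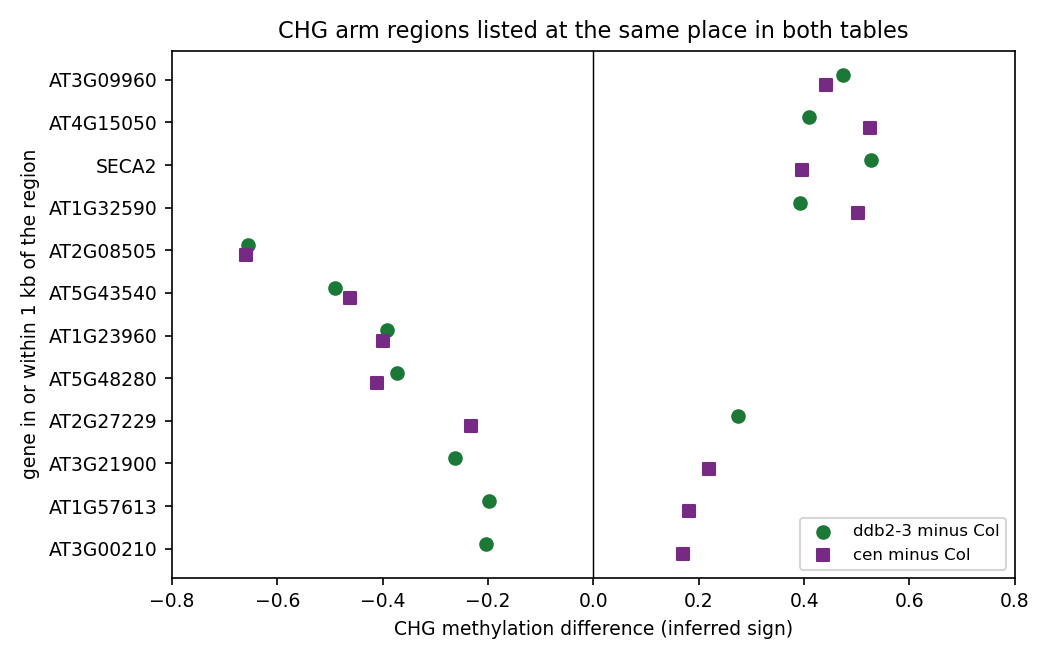
CHG methylation difference from Col (x axis, line minus Col on the inferred sign) for 12 arm places listed in both tables (y axis, named by a gene in or within 1 kb of the region), with circles for ddb2-3 and squares for cen. From the top, 4 places were higher in both lines, 4 were lower in both, and 4 went opposite ways, with ddb2-3 higher at AT2G27229 and lower at the rest of these. The 4 strongest places of each kind were picked, so their number does not show how common each kind is.

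The longest regions reached 800 bp in ddb2-3 and 1100 bp in cen. In the authors' deposited tables, chromosome 5 from 19198401 to 19199200, in AT5G47300 and within 1 kb of AT5G47290, was higher by 0.279 in ddb2-3 and by 0.367 in cen over the same 800 bp. CG methylation over 19198401 to 19199300 was higher by 0.474 in ddb2-3 and 0.536 in cen, in the authors' deposited tables. The next longest gain of ddb2-3 lay in AT1G65990 on chromosome 1, 24572101 to 24572700, higher by 0.230, with cen windows inside it higher by 0.234 and 0.112, in the authors' deposited tables. The longest lower region of ddb2-3, chromosome 3 from 4284701 to 4285500 in the pseudogene AT3G13260, was lower by 0.282 and had no cen CHG counterpart in the authors' deposited tables. In the pseudogene AT1G67626, within 1 kb of POLA2, a subunit gene of DNA polymerase alpha, CHG methylation was lower by 0.373 in ddb2-3 over 25343601 to 25344200 and by 0.264 in cen over 25343601 to 25344300 on chromosome 1, in the authors' deposited tables. At 700 bp that cen region was among the longest losses of cen, as was 1 of equal length within 1 kb of AT5G05040, chromosome 5 from 1488401 to 1489100, lower by 0.225 with CG lower by 0.538, in the authors' deposited tables. A region of 1100 bp in cen on chromosome 1, 8837401 to 8838500, in ASB1, which encodes a subunit of anthranilate synthase in tryptophan synthesis, was higher by 0.201 in the authors' deposited table. Its ddb2-3 counterpart was a single window, 8837601 to 8837700, higher by 0.168 in the authors' deposited table. The other 1100 bp region, chromosome 2 from 7632601 to 7633700 beside AT2G17540 and TRM26, was higher by 0.347 in cen, and 7632701 to 7632800 by 0.248 in ddb2-3, in the authors' deposited tables.

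A few genes gathered several regions. AT3G05410, on chromosome 3, had 5 regions within the gene in each table. In ddb2-3, 2 of them were lower, by 0.178 and 0.153, and 3 higher, by 0.114, 0.124 and 0.181, whereas all 5 were higher in cen, by 0.110 to 0.220, in the authors' deposited tables. AT1G27570 on chromosome 1 had 3 lower and 2 higher regions in ddb2-3 and 4 higher in cen. AT4G22410 on chromosome 4 had 4 lower and 1 higher in ddb2-3, with a largest difference of 0.189 in the authors' deposited table. AT4G15050 led the cen table with 6 regions in or within 1 kb of the gene, all higher, by 0.146 to 0.525 in the authors' deposited table. For AT1G32010 on chromosome 1 there were 5 in cen, all higher, by 0.126 to 0.227 in the authors' deposited table.

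Some genes known for epialleles or imprinting, many of them methylated in wild type, had CHG regions. Of the 18 listed genes on the arms, 6 (33.3%) had a region in ddb2-3, beside 3.57% of all protein-coding genes, and all 6 had lower regions. In cen it was 5 (27.8%), beside 4.03%, with higher regions at 3 and lower ones at 2. The list was drawn up with earlier results known and was not tested. Within 1 kb of SDC, an F-box gene kept silent by methylated promoter repeats, the window on chromosome 2 from 7681801 to 7681900 was lower by 0.197 in ddb2-3 and by 0.170 in cen, in the authors' deposited tables. Within 1 kb of BNS a window was lower by 0.155 in ddb2-3 and by 0.143 in cen on chromosome 1, 27515501 to 27515600, in the authors' deposited tables. At the immune receptor genes RPP4 and RPP7 the listed windows were lower in ddb2-3 and higher in cen, and no window was listed in both lines. In RPP4 the authors' deposited tables give windows lower by 0.145 and 0.191 in ddb2-3 and a window higher by 0.152 in cen. In RPP7 they were lower by 0.196 in ddb2-3 and, in 3 windows, higher by 0.113, 0.179 and 0.124 in cen, in the authors' deposited tables. HDG9 (lower by 0.235) and MPC (lower by 0.175) had CHG regions in ddb2-3 alone, and FWA, an imprinted homeobox gene, had one in cen alone, higher by 0.228 with CHH higher by 0.114, in the authors' deposited tables. In HDG9, however, CG was lower in both lines, by 0.258 in ddb2-3 and 0.235 in cen, in the authors' deposited tables.

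At most 2 genes of each methylation or repair list had a CHG region on the arms. By list, in ddb2-3 these were 7.14% for the CHG pathway, 10.5% for RNA-directed methylation, 0% for active demethylation and 11.1% for global genome repair. All protein-coding genes stood at 3.57%. In cen the matching shares were 0%, 5.26%, 11.1% and 5.56%, beside 4.03%. With so few genes these shares are coarse, and they were not tested. The list of 14 genes for the CHG pathway is broad. It includes the methyltransferase genes CMT3 and CMT2, the histone methyltransferase genes SUVH4 to SUVH6 and the demethylase gene IBM1. It also holds genes not particular to CHG, such as MET1, DDM1 and SUVH9. SUVH9 alone had a region in ddb2-3, lower by 0.249 within 1 kb of the gene in the authors' deposited table. No gene of this list had one in cen. In the list for RNA-directed methylation, with 19 genes on the arms, NRPD1 and DMS3 had a region within 1 kb of the gene and none inside it. Near NRPD1, for the largest subunit of RNA polymerase IV, the same window was higher by 0.219 in ddb2-3 and 0.194 in cen, in the authors' deposited tables. A window within 1 kb of DMS3, AT3G49230 and emb1796 was lower by 0.299 in ddb2-3, in the authors' deposited table. Of 9 active demethylation genes none had a region in ddb2-3, and the glycosylase gene ROS1 had one in cen, lower by 0.139 over 15309101 to 15309400 on chromosome 2 in the authors' deposited table. ROS1 also carried CG differences there, lower by 0.358 and, next to it, higher by 0.288 in ddb2-3 and lower by 0.219 in cen, in the authors' deposited tables. The list for global genome repair, with 18 genes on the arms, also holds photolyase genes, which are not part of that pathway. In ddb2-3, CUL4 (higher by 0.131) and the photolyase gene UVR2 (lower by 0.203) had a region, in the authors' deposited table. In cen, XPB2, a helicase gene of the repair complex (higher by 0.209), had one, in the authors' deposited table. All 3 regions lay within 1 kb of the gene. DDB2 itself had none in either table.

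Gene families were recognised by words in the synonyms of the gene table, which name only part of each family. Among families with over 100 genes named on the arms, the share with a CHG region was near or below the 3.57% of ddb2-3 and the 4.03% of cen. In ddb2-3 it was 4 of 216 for cytochrome P450 genes, 7 of 396 for transferases, 5 of 171 for receptor kinases, 5 of 164 for proteases, 4 of 258 for transporters and 4 of 110 for ubiquitin genes. In cen the matching counts were 9, 11, 5, 4, 4 and 2. Among the smaller families a region was found in ddb2-3 at 4 of 68 zinc finger, 1 of 27 F-box and 1 of 99 transcription factor genes, and at none of 11 disease resistance, 50 heat shock, 22 pectin, 12 pentatricopeptide and 7 defensin genes. In cen the counts were 3 zinc finger, 1 F-box, 2 transcription factor, 1 disease resistance and 1 heat shock gene, and none in the other three. CYP71B32, a cytochrome P450 gene, was lower by 0.169 in ddb2-3 on chromosome 3, 19764801 to 19765200, and higher by 0.245 in cen over 19764901 to 19765000, in the authors' deposited tables. UBC27, a ubiquitin-conjugating enzyme gene, was higher by 0.338 in ddb2-3 and 0.341 in cen at a region within 1 kb on chromosome 5, with CG higher by 0.339 in ddb2-3 and 0.352 in cen, in the authors' deposited tables. Beside SULTR3;5, a sulfate transporter gene, chromosome 5 from 6612301 to 6612500 was lower by 0.352 in ddb2-3, with CG lower by 0.425 and CHH by 0.126, in the authors' deposited tables. Within 1 kb of UGT78D2, a glucosyltransferase gene of flavonoid synthesis, CHG methylation was higher by 0.211 in cen, with CG higher by 0.493 and CHH by 0.134, in the authors' deposited tables. CG in the same window was also higher in ddb2-3, by 0.466, in the authors' deposited table.

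The other family genes with the largest differences, at most 2 per family and line, had regions in the gene or within 1 kb of it. In ddb2-3, the authors' deposited table gives lower regions at the receptor kinase gene PERK3 (0.225), the cytochrome P450 gene CYP706A1 (0.237), the transferase genes TAR1 (0.189) and LGT5 (0.183), the zinc finger gene ATCTH (0.210), the protease gene DEG8 (0.244), the F-box gene FBS2 (0.104) and the ubiquitin gene UBQ13 (0.142). Higher regions of ddb2-3 lay at PERK7 (0.183), the transcription factor gene bZIP68 (0.132), the zinc finger gene ZFP4 (0.140), the peptidase gene scpl41 (0.280) and the transporter gene UMAMIT45 (0.250), in the authors' deposited table. In cen, the regions at AT3G59750 (0.248) and CRK41 (0.234), both receptor kinase genes, GSTF14 (0.250), ARABIDILLO-2 (0.173), GATA13 (0.213), MYB3R2 (0.202), HB34 (0.149) and ZFP4 (0.127) were higher, in the authors' deposited table. So were those of cen at CLPP5 (0.235), UMAMIT44 (0.246), UMAMIT2 (0.156), Hsp81.4 (0.146) and UBQ13 (0.127), while those at CYP705A3 (0.293), SPPL2 (0.149) and RPP5 (0.167) were lower, in the authors' deposited table. At UBQ13 the ddb2-3 and cen regions did not overlap.

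On the arms a larger share of CHG regions overlapped a CG or CHH region of the same line than near the centromeres. The overlap expected from the number and length of CG and CHH regions in each part was not worked out. An overlap of 1 bp or more with CG was found for 289 arm regions (24.3%, 21.9 to 26.8) in ddb2-3, against 11.6% (10.5 to 12.8) of pericentromeric ones. In cen it was 361 (23.6%, 21.6 to 25.8) against 10.9% (10.1 to 11.8). Directions matched in 288 of 291 arm pairs in ddb2-3 and in 360 of 362 in cen. These readouts come from the same libraries and, in CG and CHG, from neighbouring cytosines. With CHH regions, 104 arm CHG regions (8.73%, 7.26 to 10.5) overlapped in ddb2-3 against 2.59% near the centromeres, and 133 (8.71%, 7.40 to 10.2) in cen against 3.51%. At places where CHG and CG met, the median absolute CHG difference was 0.197 in ddb2-3 and 0.186 in cen, and the median CG difference was 0.341 in ddb2-3 and 0.314 in cen.

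A larger share of the lower than of the higher CHG regions met a CG region in both tables, and no test of this was made. In ddb2-3, 27.8% of the lower and 20.1% of the higher arm CHG regions met a CG region, while 5.44% of the lower and 12.6% of the higher ones met a CHH region. In cen, 37.9% of the lower and 20.8% of the higher regions met a CG region, and 10.7% of the lower and 8.32% of the higher ones a CHH region. CG, CHG and CHH went the same way together at 27 arm regions in ddb2-3, 13 higher and 14 lower, and at 39 in cen, 26 higher and 13 lower. In the pseudogene AT1G29650 all contexts were lower in both lines, with CHG lower by 0.406 in ddb2-3 over 10363101 to 10363300 and by 0.351 in cen over 10363001 to 10363300 on chromosome 1, in the authors' deposited tables. Beside ERF5, an ethylene response factor gene, CHG methylation on chromosome 5 from 19179001 to 19179100 was lower by 0.432 in ddb2-3 together with CG and CHH, in the authors' deposited table. In the pseudogene AT1G22560 all contexts were higher in cen, with CHG by 0.432 over 7973801 to 7974600 on chromosome 1, in the authors' deposited table.

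The 3 Mb limit falls among regions with ordinary values. The arm region nearest to it in ddb2-3, chromosome 5 from 15000701 to 15000900, was lower by 0.129, and the region nearest to it on the other side, chromosome 2 from 6591201 to 6591300, was lower by 0.159, in the authors' deposited table. In cen, chromosome 3 from 10998501 to 10998600 was the nearest arm region, higher by 0.167, and 11000601 to 11000900 the nearest beyond the limit, higher by 0.215, in the authors' deposited table.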

How the data were processed

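Bisulfite sequencing of 1 Col and 1 ddb2-3 library was processed by the authors with Bismark and Bowtie2 2.0 on TAIR10 after FastQC, Trim Galore and cutadapt, as the submitters' processing notes list. The sources used here do not say how regions were called, nor the test or coverage behind them. The authors deposited 6 region lists, 1 per comparison and context, with a difference in methylation level (unit: other) on each row, always above 0.1 in absolute size on chromosomes 1 to 5.

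The sign was inferred from windows listed with the same value (within 1.5e-06) in both comparisons, where the lines have equal levels. Of 818 such CG windows 806 were positive as deposited, as were all 5 CHH windows, which would arise where both lines lack methylation that Col has. Positive was therefore read as Col above the line. CHG, with 4 of 7 positive, does not decide this and was read like the others.

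Regions were placed by midpoint against RefSeq's TAIR10.1 genes, which served for names and neighbourhood alone, with 1 kb on either side. Densities take each arm to its last gene. Named are, per table and direction, the 4 regions of largest difference and the 2 longest, per table the 3 genes with most regions, the 4 strongest places in both tables of each kind, listed genes, and up to 2 genes per family. AT1G29650, ERF5 and AT1G22560 were chosen after their values were seen. Members and lists were chosen with earlier results of these data known. The code was tested on simulated data and run with matplotlib 3.10.9, SciPy 1.17.1, NumPy 2.4.6, pandas 2.3.3 and Python 3.11.15.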

Additional observations from a re-analysis of the deposited data

Results flagged for a closer look

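Among arm places where CHG regions of ddb2-3 and cen share at least 1 bp and have opposite directions, the 4 with the largest values, by the smaller of both differences, are given. Each line has 1 library, and the difference between the lines was not tested. In AT2G27229, within 1 kb of LHW, a transcription factor gene of vascular development, ddb2-3 was higher by 0.274 (chromosome 2, 11649201 to 11649600) and cen lower by 0.233 (11649101 to 11649500) in the authors' deposited tables. CG methylation there was higher by 0.301 in ddb2-3 and lower by 0.280 in cen, in the authors' deposited tables. Near AT3G21900, ddb2-3 was lower by 0.262 (chromosome 3, 7714301 to 7714700) and cen higher by 0.220 (7714601 to 7714900), with CG lower by 0.622 in ddb2-3 and higher by 0.396 in cen, in the authors' deposited tables. Near AT1G57613 and AT1G57620, ddb2-3 was lower by 0.199 (chromosome 1, 21341601 to 21341900) and cen higher by 0.182 (21341701 to 21341800), in the authors' deposited tables. Near AT3G00210, a noncoding gene, ddb2-3 was lower by 0.205 (chromosome 3, 1963601 to 1964100) and cen higher by 0.171 (1963601 to 1963700), in the authors' deposited tables. Both lines were set against the same Col library, but the paired regions have different ends. Levels in the shared stretch alone are unknown, so whether Col lay between the lines there is not shown.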

How the results depend on the processing

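Of 64 alternative values, 31 stayed near the value given above, by its interval or its count, and 33 moved further. A change of sign was possible only for the arm share minus the pericentromeric share, which kept its sign. With a limit of 0.2 on the difference, the share of higher regions was 42.1% in ddb2-3, region counts were 456 in ddb2-3 and 516 in cen, and 343 genes of ddb2-3 and 355 of cen had a region. With arms from 2 Mb, 49.1% of 1815 regions were higher in ddb2-3, close to an even split, in place of 46.0%. The excess of lower regions in ddb2-3 was thus smaller with that limit. In cen, 85.8% of 2502 regions were higher with arms from 2 Mb. Protein-coding genes then had 44.5% of the regions in ddb2-3 and 40.5% in cen. The arm share minus the pericentromeric share was -6.27 points in cen, in place of -8.18. With arms from 5 Mb there were 733 regions in ddb2-3 and 910 in cen, with 57.4% at protein-coding genes in ddb2-3 and 54.3% in cen, and 81.1% were higher in cen. The flank set the share at protein-coding genes, at 21.1%, 38.0% and 63.8% in ddb2-3 and 21.2%, 35.9% and 60.6% in cen for no flank, 500 bp and 2 kb, with 247, 536 and 1319 genes in ddb2-3 and 305, 615 and 1580 in cen. Counted within 200 bp, CG regions stood at 35.6% of arm CHG regions in ddb2-3 and 34.9% in cen, and CHH regions at 15.9% in ddb2-3 and 16.2% in cen. A limit of 0.15 and merging of neighbours moved no value beyond these bounds. No paired analysis was possible because each group has 1 library and the tables hold no values per library. Coverage is unknown, so the precision of single regions cannot be given.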
